A study of Mus musculus with 12 samples.

Results

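The ETn and MusD elements of the mouse were taken here as the repeat names of the ERVK family that contain ETn or ETN. This rule found 5 of the 18538 repeat names counted in each library, and 5 of the 283 names of the ERVK family. Of the 5 names, 4 stand for internal parts (MMETn-int, ETnERV-int, ETnERV2-int and ETnERV3-int) and 1 for a terminal repeat (RLTRETN_Mm). All 5 were abundant enough to be tested, among 3312 repeat names in all.

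ETn elements, or early transposons, are retrotransposons with a long terminal repeat at each end that are known for their transcription in early mouse embryos and embryonic stem cells. ETn copies carry no working genes of their own and depend on proteins made by MusD, a related element of the same ERVK family that encodes the structural protein, protease and reverse transcriptase of a retrovirus but no envelope. The terminal repeat holds the promoter and the signal that ends the transcript, and the internal part holds whatever the element encodes. New ETn insertions are a recurring cause of mutations in laboratory mice, and in embryonic stem cells methylation of histone H3 limits their transcription. In the naming of repeat libraries, MMETn-int is the internal part of ETn and ETnERV-int the internal part of the coding, MusD-like element, with ETnERV2-int and ETnERV3-int as relatives. Which genomic copies stand behind each name was not analysed here.

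The samples were total RNA from C57BL/6 preimplantation embryos at the 2-cell stage, 1.5 days post fertilization, in 2 groups of 6 libraries. The group called WT came from wild-type oocytes and is labelled WT (m+/p-), and the group called KO came from Kdm4a knockout oocytes and is labelled Kdm4a knockout (m-/p-). Sperm was from Kdm4a knockout males in both groups, so no library had a working paternal allele and the contrast was of the maternal one. The product of Kdm4a is a histone demethylase acting on methylated lysines of H3. The labels place embryos in individual tubes and do not state the number of embryos per library and of oocyte donors, so the p-values measure the spread between these libraries.

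Total counts ran from 10946392 to 18902360 in WT against from 7952526 to 16493286 in KO. The 2-cell marker MERVL-int made up 4.42% to 7.0% of the counts in WT against 2.48% to 4.27% in KO, so it was abundant in every library, and its groups did not overlap. Ribosomal RNA repeats held 5.17% to 6.26% of the counts in WT against 4.79% to 6.94% in KO. WT replicate 2 stood far from the other libraries on principal component 1 of all tested repeats (21.7% of variance) and KO replicate 5, with the fewest reads, on component 2 (12.2%). Values without both are given for the fold changes and the ratios of MMETn-int, and at the end for shares and ratios whose sign turned. The table holds repeats only, so Kdm4a itself was not measured here.

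The 5 names together received 10848 to 25405 reads in a library. That was 0.130% ± 0.0149 of all counts in WT against 0.132% ± 0.0113 in KO (SD, n = 6 each). As a share of the counts of the ERVK family, the sum stood at 2.72% ± 0.184 in WT against 2.51% ± 0.224 in KO (SD, n = 6 each). Single members had between 933 and 7930 reads in a library, so counting error alone was at most 3.27%, if every read is taken as independent. The spread between libraries of 1 group was wider for every member, with a coefficient of variation of 5.19% (ETnERV-int in WT) to 20.4% (ETnERV2-int in KO). The values are shares of the reads assigned to repeats, and fewer cells with a transcript cannot be told apart from less of it in each cell.

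Of the reads of the 5 names, ETnERV-int took the most and RLTRETN_Mm the fewest in every library, while the order of the names between them varied. ETnERV-int held 26.0% to 33.7% of the summed reads over the 12 libraries. ETnERV2-int held 19.1% to 27.3%, ETnERV3-int 16.5% to 22.8%, MMETn-int 13.0% to 23.6% and RLTRETN_Mm 6.21% to 10.9%. These are shares of reads and not levels per length, since the table gives no length of a repeat, and a terminal repeat is far shorter than an internal part. The share of MMETn-int was 20.4% ± 2.14 in WT against 17.6% ± 2.71 in KO, the widest difference among the 5 (SD, n = 6 each).

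None of the 5 names was called between the genotypes. All 5 had lower mean levels in KO, by log2 changes from -0.50 to -0.19, and the one nearest to a call was MMETn-int, the internal part of ETn. By edgeR's quasi-likelihood test with Benjamini-Hochberg (BH) adjustment and a threshold of 0.05, the called share of all repeats was 1.42%, with 1.27% lower (42 names) and 0.151% higher (5 names) in KO. At an unadjusted p under 0.05, edgeR gave 1 member lower (MMETn-int) and 0 higher, against 7.91% of all repeats lower. DESeq2 called 1 member, the same MMETn-int (adjusted p = 0.00874), against 3.83% of all repeats called lower by DESeq2, whereas 0 members passed in limma-voom with quality weights. In none of the 5 were the groups free of overlap, as they were in 2.11% of all repeats.

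All these changes are set against the bulk of repeats, which had a median log2 change of 0.01. With scaling by total counts only, that median moved to 0.32 and the calls over all repeats turned to 357 higher and 33 lower. The members moved with it: MMETn-int stood at -0.19 and the other 4 between 0.06 and 0.12, none of them called (edgeR BH-adjusted p from 0.263 to 0.813). The signs of ETnERV-int, ETnERV2-int, ETnERV3-int and RLTRETN_Mm therefore depended on the scaling. That of MMETn-int did not differ between these 2 scalings, but it turned when counts were taken as a share of the LTR class, given below.

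MMETn-int, the internal part of the element without genes of its own, was measured at 241 normalised CPM (CPM, reads scaled to a common library size and then corrected by TMM factors) in the lowest WT library, at a median of 294 and at 342 in the highest. In KO the lowest library stood at 165, the median at 205 and the highest at 268. Every KO library was under the WT median and 4 were under the whole WT range, while KO replicates 2 and 4 fell within the range of WT. The means were 295 ± 39.0 in WT against 209 ± 41.6 in KO (SD, n = 6), a ratio of 0.708 and a log2 change of -0.50 (SE 0.13). Its 95% interval ran from -0.78 to -0.22, and the adjusted p over all repeats was 0.0645 (edgeR).

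The side of the threshold on which MMETn-int fell depended on the setting, while its log2 change was negative in all 25 other settings of the fit. It was called in 5 of the 25, and adjusted p ranged from 0.00874 to 0.263 over them. When only names with a mean of at least 10 CPM were tested, the log2 change was -0.48 and the edgeR BH-adjusted p 0.0212, in a table where 6.36% of names were called lower. Without simple repeats and low-complexity names, the edgeR BH-adjusted p was 0.0165 and 7.11% of names were called lower. Without KO replicate 2, the KO library with the highest MMETn-int, the log2 change was -0.58 (edgeR BH-adjusted p = 0.0265), and 2.43% of names were called lower. Without both WT replicate 2 and KO replicate 5, the log2 change was -0.39 and the edgeR BH-adjusted p 0.213. MERVL-int, ribosomal RNA repeats and depth are given per group above, and their part in this difference was not tested.

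**Figure D1:**
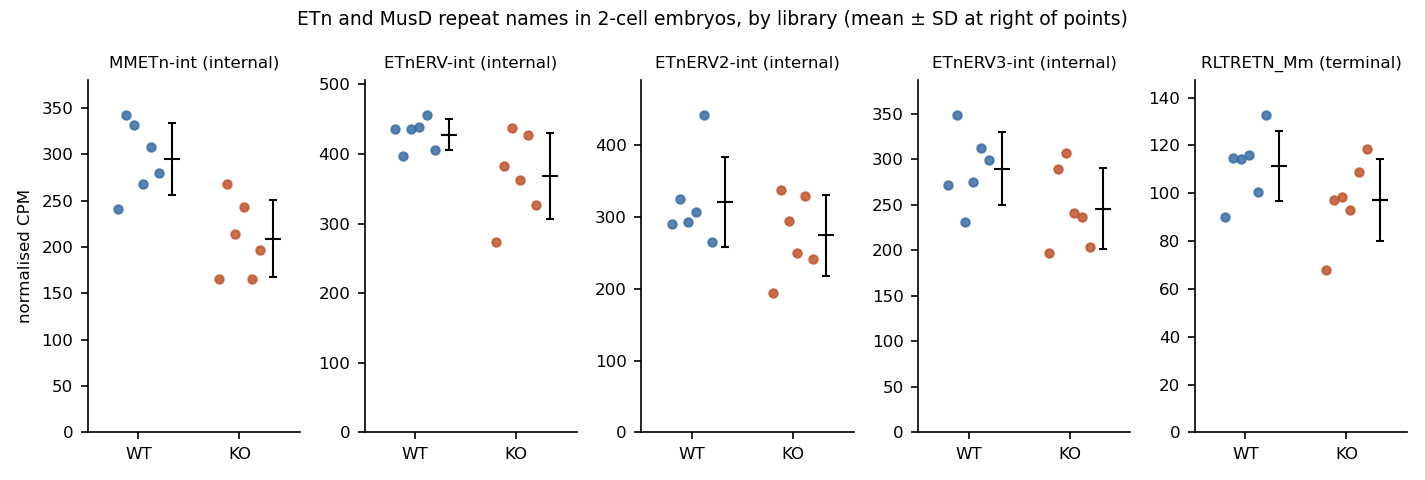
Normalised CPM of the 5 ETn and MusD names in each library (points), with the mean and SD of the 6 WT and 6 KO libraries at the right of each group; each panel has its own linear axis from 0. MMETn-int has the widest gap between the means, 295 against 209, and in all 5 panels the groups overlap.

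ETnERV-int, the internal part of the coding element, was the steadiest member in WT. Its WT libraries lay between 397 and 456 normalised CPM with a median of 435, and its KO libraries between 273 and 437 with a median of 373. Of the KO libraries, 4 lay below every WT library and the other 2, replicates 3 and 5, within the WT range. The means were 428 ± 22.2 in WT against 368 ± 61.9 in KO (SD, n = 6). The log2 change was -0.22, with a 95% interval from -0.44 to 0.00 and an edgeR BH-adjusted p of 0.388. Without both WT replicate 2 and KO replicate 5 it was -0.28 (edgeR BH-adjusted p = 0.287).

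ETnERV2-int, a relative of the coding element, ran from 264 to 441 normalised CPM in WT with a median of 300, and from 193 to 338 in KO with a median of 272. Most WT libraries stood close together and WT replicate 5 stood alone at the top, with the next at 324. The means were 320 ± 62.6 and 274 ± 55.9 (SD, n = 6), a log2 change of -0.22 with a 95% interval from -0.54 to 0.09 (edgeR BH-adjusted p = 0.563). Without WT replicate 5 the log2 change was -0.12 (edgeR BH-adjusted p = 0.842), so this library moved the value by over 1.5 times. Without both WT replicate 2 and KO replicate 5 it was -0.28 (edgeR BH-adjusted p = 0.514).

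ETnERV3-int, the other relative, ran from 231 to 348 normalised CPM in WT (median 287) and from 197 to 307 in KO (median 239). Here 2 KO libraries, replicates 1 and 6, lay below every WT library. The log2 change was -0.24, with a 95% interval from -0.50 to 0.03 and an edgeR BH-adjusted p of 0.435. Without both WT replicate 2 and KO replicate 5 it was -0.17 (edgeR BH-adjusted p = 0.683).

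RLTRETN_Mm, the terminal repeat, ran from 90.1 to 133 normalised CPM in WT (median 114) and from 67.9 to 119 in KO (median 97.8). Only KO replicate 1 lay below every WT library. The means were 111 ± 14.6 in WT against 97.3 ± 17.2 in KO (SD, n = 6), with a log2 change of -0.19, a 95% interval from -0.47 to 0.08 and an edgeR BH-adjusted p of 0.563. Without KO replicate 1 the log2 change was -0.11 (edgeR BH-adjusted p = 0.782), and without both WT replicate 2 and KO replicate 5 it was -0.22 (edgeR BH-adjusted p = 0.574).

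KO replicate 1 was the lowest KO library for ETnERV-int, ETnERV2-int, ETnERV3-int and RLTRETN_Mm, and the second lowest for MMETn-int, at 166 normalised CPM against 165 in KO replicate 5. The same library had the smallest share of MERVL-int, 2.48% of its counts, whose part in these values was not tested. Without KO replicate 1 the log2 changes of MMETn-int and ETnERV-int were -0.44 and -0.14 (edgeR BH-adjusted p = 0.154 and 0.554), and that of ETnERV2-int was -0.14 (edgeR BH-adjusted p = 0.768). For ETnERV-int, ETnERV2-int and RLTRETN_Mm the value therefore moved by over 1.5 times with this library.

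Shares of all counts, which equal scaling by total counts, gave no difference past the correction over the 5 members. MMETn-int made up 0.0264% ± 0.00272 of all counts in WT against 0.0231% ± 0.00327 in KO (mean ± SD of 6 libraries each, exact permutation test over 924 regroupings, two-sided, p = 0.0823, adjusted p = 0.411), and 2 KO libraries lay below every WT library. The other 4 members had slightly higher mean shares in KO. ETnERV-int, for one, stood at 0.0386% ± 0.00490 in WT against 0.0408% ± 0.00508 in KO (6 libraries each, exact permutation test, p = 0.472, BH-adjusted p = 0.722). By this measure 0 KO libraries lay below every WT library for ETnERV-int.

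The denominator decided on which side of WT the KO mean lay. Within the ERVK family, MMETn-int held 0.554% ± 0.0660 of the counts in WT against 0.438% ± 0.0609 in KO (mean ± SD of 6 libraries each, exact permutation test, p = 0.0152, BH-adjusted p = 0.0758), and 4 KO libraries lay below every WT library. Within the LTR class, where MERVL reads were fewer in KO and which made up 55.9% of all counts in WT against 47.7% in KO, all 5 members had higher mean shares in KO. ETnERV3-int held 0.0466% ± 0.00688 of LTR counts in WT against 0.0571% ± 0.00781 in KO (6 libraries each, exact permutation test, p = 0.0173, BH-adjusted p = 0.0866). ETnERV-int held 0.0694% ± 0.0108 in WT against 0.0858% ± 0.0127 in KO (6 libraries each, exact permutation test, p = 0.0390, BH-adjusted p = 0.0974). None of these shares passed the correction.

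The comparison of internal with terminal names asked whether the internal names and RLTRETN_Mm, the only terminal name, had the same KO to WT change. The copies behind each name were not analysed, so a like ratio does not show that both parts of the same element changed alike. Ratios of counts within a library, which need no scaling, were tested for all 10 pairs of members, and none differed between the genotypes after adjustment over the 10. The log2 ratio of ETnERV-int to RLTRETN_Mm was 1.95 ± 0.24 in WT against 1.92 ± 0.24 in KO (mean ± SD of 6 libraries each, exact permutation test, p = 0.855, BH-adjusted p = 0.985). For ETnERV2-int to RLTRETN_Mm it was 1.51 ± 0.38 and 1.49 ± 0.26 (6 libraries each, exact permutation test, p = 0.896, BH-adjusted p = 0.985), and for ETnERV3-int to RLTRETN_Mm 1.38 ± 0.27 and 1.34 ± 0.33 (6 libraries each, exact permutation test, p = 0.812, BH-adjusted p = 0.985). These 3 differences of means were at most 0.04 in size on the log2 scale, far inside the SD between libraries.

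MMETn-int differed more from the terminal repeat. Its log2 ratio to RLTRETN_Mm was between 1.08 and 1.61 in WT and, in KO, between 0.60 and 1.47. KO replicates 5 and 6, at 0.60 and 0.73, lay below every WT library, and every KO library was under the WT median. The means were 1.41 ± 0.22 and 1.10 ± 0.36 (SD, n = 6), a difference of -0.31 that did not pass (exact permutation test, p = 0.110, BH-adjusted p = 0.319).

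Against the ETnERV internal names, MMETn-int showed differences of like size. The mean log2 ratio of MMETn-int to ETnERV-int was -0.54 ± 0.23 in WT against -0.82 ± 0.32 in KO (mean ± SD of 6 libraries each, exact permutation test, p = 0.110, BH-adjusted p = 0.319). To ETnERV2-int it was -0.11 ± 0.27 and -0.39 ± 0.33 (6 libraries each, exact permutation test, p = 0.128, BH-adjusted p = 0.319), and to ETnERV3-int 0.03 ± 0.25 and -0.24 ± 0.23 (6 libraries each, exact permutation test, p = 0.0931, BH-adjusted p = 0.319). In each of these 3 ratios, 5 of 6 KO libraries lay below the WT median. The 4 ratios share MMETn-int and are not independent of one another. Without KO replicate 5 the 4 differences lay between -0.21 and -0.16, each with an exact permutation adjusted p of 0.644, and the differences in the ratios to ETnERV-int and ETnERV2-int shrank by over 1.5 times. Without WT replicate 3, the difference in the ratio to ETnERV3-int was -0.17 (exact permutation test, BH-adjusted p = 0.606). Without both WT replicate 2 and KO replicate 5 the 4 differences lay between -0.22 and -0.10 (exact permutation adjusted p = 0.807 each).

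**Figure D2:**
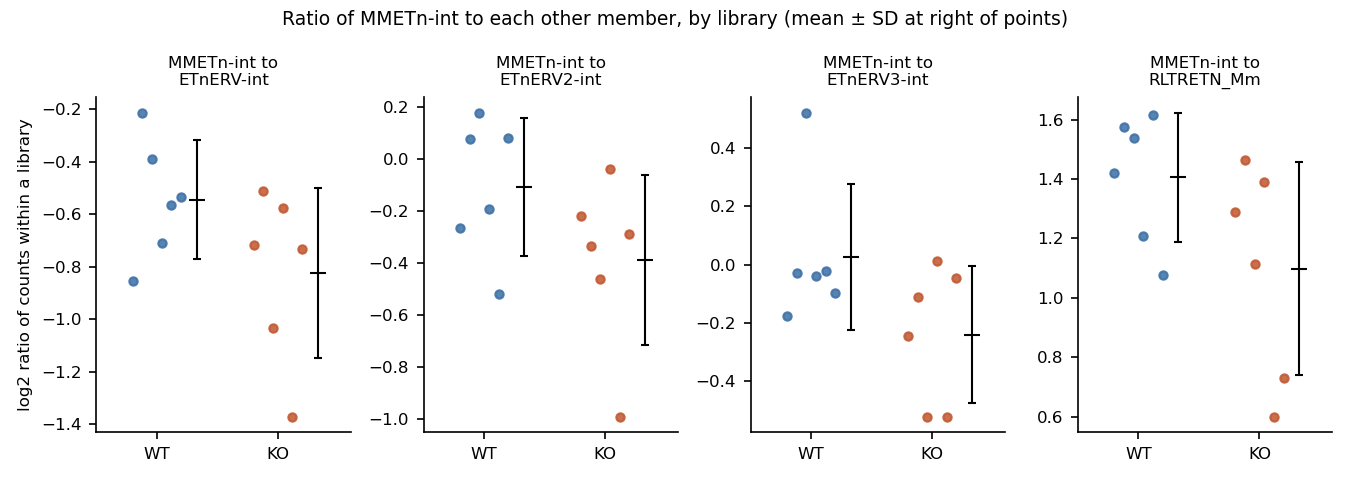
Log2 ratio of MMETn-int counts to those of each other member within a library (points), with the mean and SD of 6 WT and 6 KO libraries at the right of each group; axes do not start at 0. The KO means lie 0.27 to 0.31 below the WT means in the 4 panels, and the groups overlap in each.

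The ratios among the 3 ETnERV names were alike in both genotypes. ETnERV-int to ETnERV2-int had a mean log2 ratio of 0.44 ± 0.22 in WT against 0.44 ± 0.14 in KO (mean ± SD of 6 libraries each, exact permutation p = 0.985). ETnERV-int to ETnERV3-int had 0.57 ± 0.25 and 0.58 ± 0.16, and ETnERV2-int to ETnERV3-int 0.13 ± 0.26 and 0.15 ± 0.20 (6 libraries each, exact permutation p = 0.911 and 0.903). Names of close sequence can share reads, and the sources used here do not say how shared reads were assigned. The separate levels of these names are therefore uncertain.

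The relation of the members from library to library was described by correlations within each genotype. Over the 10 pairs of members, Pearson r ran from -0.58 to 0.54 across the 6 WT libraries and from 0.19 to 0.89 across the 6 KO libraries, and none of the 20 relations passed the correction (exact permutation over 720 pairings, lowest adjusted p = 0.389). With 6 libraries a lone r could pass only if its pairing was the most extreme of the 720. A lone Spearman rho could not pass at all, so the lack of a pass says little. The members of 1 library share its scaling factor. The median r on normalised CPM was 0.15 in WT against 0.61 in KO. It was positive in 6 of the 10 pairs in WT and in all 10 in KO. Each r was also taken without the 2 libraries farthest from the median of the first name. In KO, r with RLTRETN_Mm then became -0.26 for ETnERV-int, -0.05 for ETnERV2-int and -0.75 for ETnERV3-int. KO replicate 1 was among the libraries left out for each of these pairs. In the other KO pairs r stayed positive, and signs turned in some WT pairs too. On shares of all counts, the median r was 0.21 in WT against 0.33 in KO. Shares use no TMM factor, but the members of a library still share its total count as divisor. There r was positive in 9 of the 10 pairs in WT and in 6 of the 10 in KO. The median was thus higher in KO on both measures, while the order by positive pairs turned.

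The closest pair in KO was ETnERV-int with ETnERV2-int. Its r was 0.887 (6 libraries each, exact permutation test, p = 0.0194, BH-adjusted p = 0.389) and its Spearman rho 0.771 (exact permutation test, p = 0.103, BH-adjusted p = 0.823), and r was 0.831 without KO replicates 1 and 3, the libraries farthest from the median. In WT the same pair had an r of 0.537 (6 libraries each, exact permutation test, p = 0.267, BH-adjusted p = 0.667) and a rho of 0.371 (exact permutation test, p = 0.497, BH-adjusted p = 0.823). MMETn-int, the internal part of ETn, was also set against RLTRETN_Mm, the terminal repeat. This pair had an r of 0.363 in WT (6 libraries each, exact permutation test, p = 0.483, BH-adjusted p = 0.738). Its rho in WT was 0.143 (exact permutation test, p = 0.803, BH-adjusted p = 0.845). In KO the r of that pair was 0.189 (6 libraries each, exact permutation test, p = 0.753, BH-adjusted p = 0.792) and its rho -0.257 (exact permutation test, p = 0.658, BH-adjusted p = 0.823). Without the 2 farthest libraries, r of that pair was -0.456 in WT against 0.528 in KO, so neither value was stable.

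By the root mean square difference of centred log2 normalised CPM over the 12 libraries, the 3 names most like ETnERV-int among 893 ranked repeats were BGLII of the ERVK family (0.09), the LINE-1 name Lx3_Mus (0.09) and RLTR13D6 of the ERVK family (0.11). The other members were less like it, at 0.17 for ETnERV2-int, 0.19 for ETnERV3-int, 0.22 for RLTRETN_Mm and 0.29 for MMETn-int, where the median of the ranked repeats was 0.31. For RLTRETN_Mm the closest were L1M4b of LINE-1 (0.14) and MuRRS4-int and RLTR14-int of the ERV1 family (0.16 each). This measure favours names that vary little.

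The rest of the ERVK family, retroviruses of the same broad group, gives the setting for these values. All 5 members had a negative log2 change, with a median of -0.22. So had 181 of the 269 other tested ERVK names (67.3%, median -0.08), against 48.8% of all repeats. Of the other ERVK names, 7 were called lower and 1 higher (edgeR BH-adjusted p under 0.05). MMETn-int had a lower fold change than most of them, with 23 of the 269 more negative still, while 64 to 80 were more negative than each of the other 4 members.

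Internal parts of other ERVK elements had values close to those of the ETn and MusD names. The 33 other internal ERVK names had a median log2 change of -0.17, with 28 negative and none called (edgeR), 10 of them lower and 2 higher at an unadjusted p under 0.05. Intracisternal A particles, another young ERVK group, had medians of -0.22 over 9 internal and -0.45 over 16 terminal names, of which 0 and 2 were called lower (edgeR), with 3 and 9 lower and 0 higher at an unadjusted p under 0.05. Their most abundant internal name, IAPEz-int, stood at 1496 ± 229 normalised CPM in WT against 1212 ± 258 in KO (SD, n = 6), a log2 change of -0.30 (edgeR BH-adjusted p = 0.380). Their most abundant terminal name, IAPLTR2a2_Mm, had -0.34 (edgeR BH-adjusted p = 0.247).

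The MMERVK and RLTR10 group, with 15 names, had a median of -0.25, all 15 negative and none called, with 6 lower and 0 higher at an unadjusted p under 0.05 (edgeR). Its most abundant internal name, MMERVK10C-int, had a log2 change of -0.08, and its most abundant terminal name, RLTR10, -0.35 (edgeR BH-adjusted p = 0.894 and 0.0643). The remaining ERVK names comprised 19 internal ones with a median of -0.13, none called by edgeR (4 lower and 2 higher at an unadjusted p under 0.05), and 210 terminal ones with a median of -0.04, of which 5 were called lower and 1 higher. Their most abundant names were MYSERV6-int (log2 change -0.26) and RLTR17B_Mm (-0.10), with edgeR BH-adjusted p of 0.0810 and 0.672. MERVL, of the ERVL family, was much further from WT: MERVL-int had a log2 change of -1.04 and its terminal repeat MT2_Mm -0.92 (edgeR BH-adjusted p = 0.0159 and 0.0229).

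**Figure D3:**
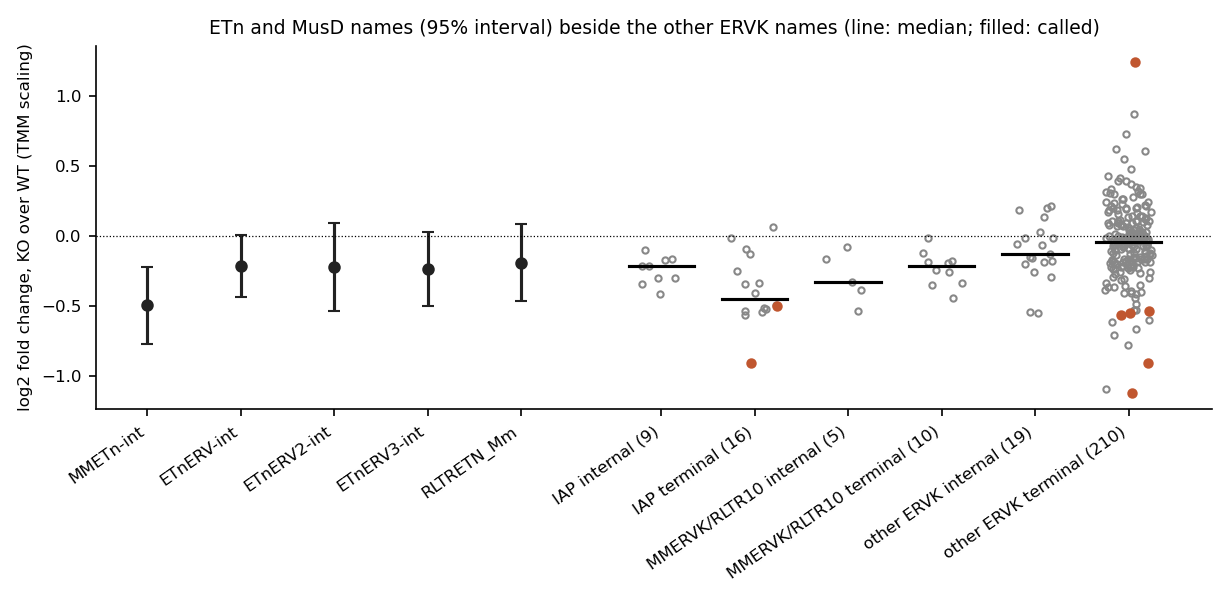
Log2 fold change of KO over WT with TMM scaling: the 5 ETn and MusD names with their 95% intervals, and the other ERVK names as points (number of names in brackets), with the median as a line and called names filled. The interval of MMETn-int ends at -0.22 and those of the other 4 members include 0, and most names of the IAP and MMERVK and RLTR10 groups also lie below 0.

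The direction of each member over all settings is drawn in the plot of fold changes by setting. All 5 log2 changes were negative in 24 of the 25 other settings, the exception being scaling by total counts. MMETn-int ranged from -0.58 to -0.39 in those 24, ETnERV-int from -0.28 to -0.14, ETnERV2-int from -0.29 to -0.12, ETnERV3-int from -0.31 to -0.17 and RLTRETN_Mm from -0.26 to -0.11. The 4 last-named were called in none of the 25 (lowest adjusted p = 0.178, for ETnERV-int). The settings share most of their libraries, so their agreement in direction is not independent evidence.

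**Figure D4:**
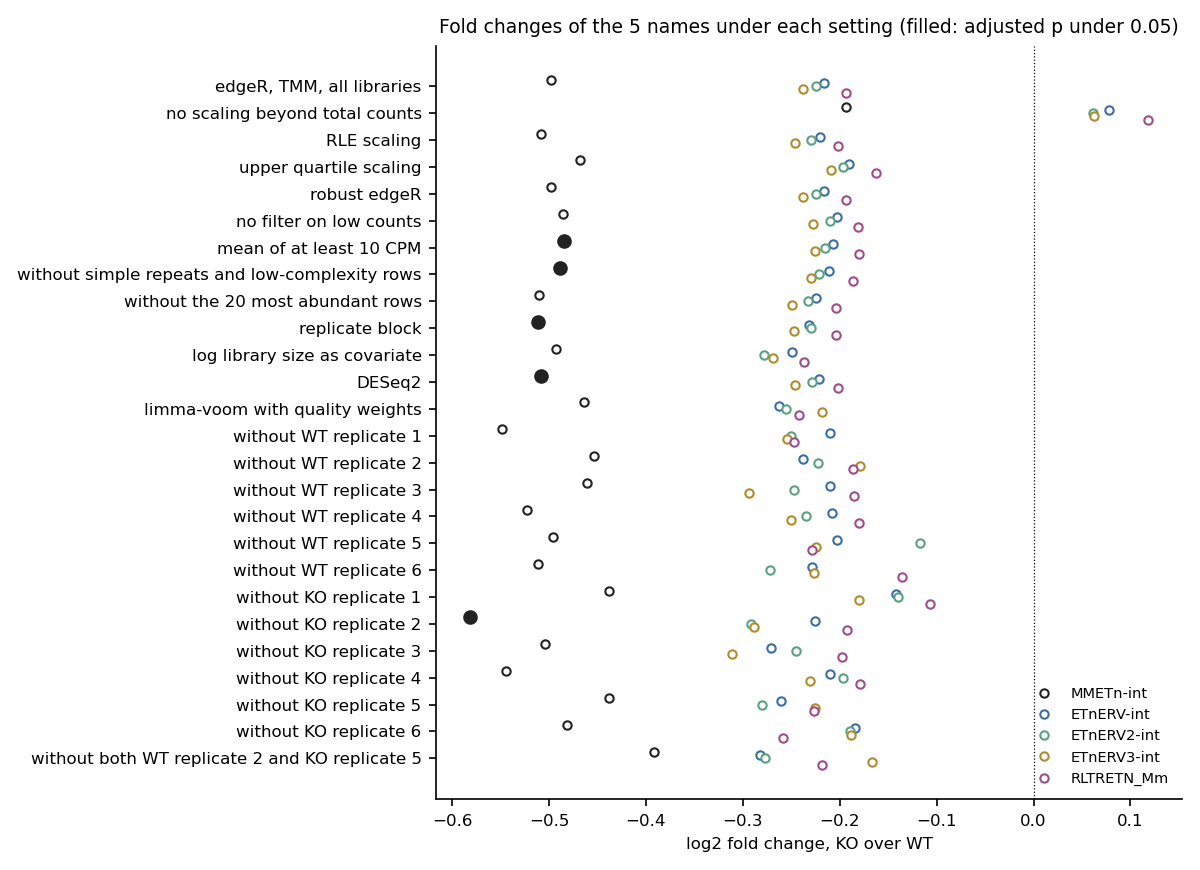
Log2 fold change of KO over WT for each member (colour) under each setting (rows), with filled points where the adjusted p was under 0.05. MMETn-int is filled in 5 settings and lies between -0.58 and -0.19, and the other 4 members pass 0 only with no scaling beyond total counts.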

How the data were processed

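The authors deposited estimated counts of reads per repeat name, 1 table per library, all whole numbers and without scaling to depth. The submitters' processing notes name mm10, Trimmomatic 0.32 and edgeR without their roles. For the repeat annotation, aligner and counter, the sources used here give no name. File names carry words for unique reads and fractions. Replicate numbers are those of the sample titles. Numbers inside the file names run in the reverse order, so the number of a single library rests on the titles.

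All repeats were fitted together with edgeR 4.0.16 (R 4.3.3): filterByExpr, TMM factors, quasi-likelihood F test on genotype, Benjamini-Hochberg over 3312 names, threshold 0.05. Standard errors come from the F statistic. Ratios (0.5 added to each count), shares and relations were tested by exact permutation, two-sided, the smallest p for 6 against 6 being 0.00216. Alternatives used DESeq2 1.42.0, limma 3.58.1, other scalings and filters, and left out libraries. The fit was tested on simulated data. No pair of replicates agreed within sampling noise (chi-square per degree of freedom at least 29.6 over 30 pairs). Reads carry no molecular identifiers, so counting errors cover reads and not molecules.

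Members, lists and tests were chosen with earlier results of these data known. All members are named, with the most abundant internal and terminal name of each comparison list and the 3 names most like 2 members.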

Additional observations from a re-analysis of the deposited data

Results flagged for a closer look

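Of 40 tests for a library standing apart within its group of 6, chance gives about 1 in 20, and 4 values in 3 libraries were picked out because the gap to the next library took up an unusually large part of the group's range. ETnERV2-int in WT replicate 5 stood at 441 normalised CPM, with the next WT library at 324, and at 0.0431% of all counts, with the next at 0.0293%. The log2 ratio of MMETn-int to ETnERV3-int was 0.52 in WT replicate 3, with the next at -0.02. The log2 ratio of ETnERV-int to RLTRETN_Mm was 1.46 in KO replicate 6, with the next at 1.97.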

How the results depend on the processing

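No member was called with the reported setting. One member, MMETn-int, was called in each of DESeq2, the filter of at least 10 CPM, the fit without simple repeats and the fit with replicate number as a block (edgeR BH-adjusted p = 0.0489), so the count was 1 in each. Of all repeats tested in these fits, 3.83%, 6.36%, 7.11% and 1.42% were called lower, in that order. The count of members ran from 0 to 1 over the fits that left out 1 library. It was 1 without KO replicate 2, where 2.43% of all repeats were called lower. Replicate numbers did not pair the samples over all tested repeats (correlations of deviations from -0.07 to 0.15). For every member, however, the unadjusted edgeR p was lower with the block. That of ETnERV2-int was 0.0434 with the block against 0.149 without it. With the block 0 ratios and 0 shares passed. Their block test had only 64 sign flips, so no ratio or share could pass alone after adjustment, and this result says little. Over all repeats the count of calls was 47, against 390 with total counts, 18 with no filter, 114 with at least 10 CPM, 108 without simple repeats, 72 with library size as covariate, 169 with DESeq2, 71 with limma-voom, 23 without both WT replicate 2 and KO replicate 5, and 19 to 93 without 1 library. The number of ratios, shares or relations past the threshold was 0 under all alternatives run. Without both WT replicate 2 and KO replicate 5, too few regroupings were left for any ratio to pass alone after adjustment, so 0 ratios there says little.

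Signs turned only for values that were not called, and the cause was not tested. With total counts, ETnERV-int, ETnERV2-int, ETnERV3-int and RLTRETN_Mm stood at 0.0778, 0.0616, 0.0621 and 0.118 (log2). Shares (percent, KO minus WT) turned outside the MERVL list for ETnERV2-int (-4.03e-05) and ETnERV3-int (-0.000127), within the LTR class for MMETn-int (0.00113), and within ERVK for ETnERV-int (-0.0307), ETnERV2-int (-0.0275), ETnERV3-int (-0.0287) and RLTRETN_Mm (-0.00367). Without both WT replicate 2 and KO replicate 5, the shares of ETnERV-int and ETnERV2-int turned (-0.000541 and -0.000569), as did the log2 ratios of ETnERV-int to ETnERV3-int (-0.116), ETnERV2-int to ETnERV3-int (-0.0952) and ETnERV3-int to RLTRETN_Mm (0.0461). Without 1 library, the share differences ran from 0.000508 to 0.00343 for ETnERV-int, 0.000238 to 0.00410 for ETnERV2-int, -8.55e-05 to 0.00205 for ETnERV3-int and 8.44e-05 (without KO replicate 6) to 0.00132 (without KO replicate 1) for RLTRETN_Mm. The log2 ratio differences ran from -0.0807 to 0.0487 (ETnERV-int to ETnERV2-int), -0.0630 to 0.0819 (ETnERV-int to ETnERV3-int), -0.0960 to 0.0636 (ETnERV-int to RLTRETN_Mm), -0.0480 to 0.0889 (ETnERV2-int to ETnERV3-int), -0.129 to 0.0984 (ETnERV2-int to RLTRETN_Mm) and -0.114 to 0.0699 (ETnERV3-int to RLTRETN_Mm).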
